A study of Homo sapiens with 16 samples.

Results

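Semaphorins are secreted, membrane-spanning or lipid-anchored ligands that were first known as axon guidance cues, and plexins are their main signalling receptors. Most class 3 semaphorins, which are secreted, need a neuropilin as co-receptor beside the plexin, and neuropilins also bind members of the VEGF family. Plexins act through Ras family GTPases on the cytoskeleton and on cell adhesion, and several semaphorins, such as SEMA4A, SEMA4D and SEMA7A, are also known from immune cells.

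All genes of the human table whose symbol is a class 3 to class 7 semaphorin, a plexin or a neuropilin were taken, which gave 31 of the 35606 genes. They comprised 20 semaphorins (7 secreted, 12 transmembrane and 1 lipid-anchored), 9 plexins and 2 neuropilins. RNA-seq had been run on 4 established cell lines. A pair of them, NCI-H526 and NCI-H1048, come from small cell lung cancers of the POU2F3, or tuft cell-like, subtype (SCLC-P). The other pair, NCI-H929 with MM1.S, are malignant plasma cells from multiple myeloma. Each line was given the vehicle DMSO or 1 uM AU-15330, a PROTAC that makes cells degrade SMARCA2, SMARCA4 and PBRM1, the ATPases and a further subunit of the SWI/SNF chromatin remodelling complexes, and each of the 8 groups held 2 libraries. The sources used here give the exposure as 24 h, as 12 to 24 h and as 4 to 12 h, so the time behind each value is not settled. The study describes RNA-seq libraries of the SCLC-P lines treated for 12 h as biological replicates. Whether this covers the libraries used here, which are titled 24 h, is not settled. For the myeloma lines the sources used here do not say whether the 2 libraries of a group came from separate cultures. In all lines the p-values measure only the spread between the libraries of a group, which may be technical. No gene was edited in any group, each tumour type stands on 2 lines, and RNA levels do not show whether the degrader's target proteins were lost. A p-value for a difference between the tumour types measures the spread between libraries, not between lines. The question put to the data was how SWI/SNF loss changes the RNA of this ligand and receptor family in each line.

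The libraries of NCI-H526 held an estimated 31.5 to 43.0 M reads, those of NCI-H1048 33.3 to 39.2 M, those of NCI-H929 12.0 to 14.1 M and those of MM1.S 16.8 to 32.4 M. The SCLC-P list (7 genes) had a summed scaled value of 2812 to 2839 in NCI-H526 and 1411 to 1504 in NCI-H1048 under DMSO, and 2.16 to 2.45 (NCI-H929) and 13.9 to 14.4 (MM1.S) in the myeloma lines. The plasma cell list (7 genes) reached 7441 to 7535 in NCI-H929, and in MM1.S 5085 to 5344, against 131 to 194 in the SCLC-P lines. Both labels therefore matched their defining genes. MM1.S libraries were depleted of ribosomal RNA and the other libraries were poly(A) selected, so apart from these marker lists no level was compared between MM1.S and another line. Values are the deposited scaled values, close to CPM, and a change is the log2 fold change of value + 0.5, given with its standard error and the adjusted p of limma over all genes tested in that line.

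Members were chosen by symbol, and within a line they were selected on 1 measured value, a mean of 1 or more over its 4 libraries, which admitted them to the test there. Neither step used the difference between the arms. Of the SCLC-P lines, NCI-H526 kept 25 members and NCI-H1048 27, and of the myeloma lines NCI-H929 kept 22 and MM1.S 20. In all, 94 of 124 gene and line pairs passed. Just inside were SEMA3B in NCI-H929 (mean 1.00) and SEMA3C in MM1.S (1.36), and just outside were SEMA6A in MM1.S (0.926) and PLXNA4 in NCI-H1048 (0.843). PLXNA4 and SEMA3E passed in no line, 13 members passed in 4 lines, 10 in 3 and 6 in 2. In 8 of the pairs the gene reached a mean of 1 in one arm only, so that a difference had to follow from the filter. These were SEMA3B, SEMA4G, SEMA6B and SEMA6C in NCI-H929, PLXND1, SEMA3C and SEMA5B in MM1.S, and SEMA7A in NCI-H1048. All 8 were called, and their values are given below as descriptions.

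Among receptors, PLXND1 fell from 61.8 to 1.21 on average in NCI-H929 and stood at 8.70 against 0.194 in MM1.S, where it passed the filter through its DMSO libraries only, and PLXNC1 fell in each of the 3 lines that express it. PLXND1 is a receptor best known from blood vessel growth, and PLXNC1 is a receptor of SEMA7A. The ligand SEMA4A, the most highly expressed member per kb in both myeloma lines, fell in each line where it was tested. These 3 were among 5 members called lower in both myeloma lines, of 16 tested in both, the others being SEMA3G and SEMA4D. Another 5 were called higher in both. Of all genes, 37.6% were called lower in NCI-H929 and 40.2% in MM1.S, and 38.4% and 33.9% were called higher. The shares lower in both or higher in both were not taken. In MM1.S the direction of the PLXND1 call followed from its pass through 1 arm only, and the SEMA3G call did not hold in every setting. PLXND1, PLXNC1 and SEMA4A were picked for display after their values were seen. The 250 bases before their annotated starts are shown, 5′ to 3′ on the strand of the gene, from RefSeq promoters on GRCh38.p14. Capitals mark GC boxes (GGGCGG on either strand), and PLXND1 lies on the minus strand of chromosome 3 at chr3:129606677-129606926, PLXNC1 on the plus strand at chr12:94148327-94148576, and SEMA4A on the plus strand at chr1:156149694-156149943, the first of its RefSeq starts.
PLXND1: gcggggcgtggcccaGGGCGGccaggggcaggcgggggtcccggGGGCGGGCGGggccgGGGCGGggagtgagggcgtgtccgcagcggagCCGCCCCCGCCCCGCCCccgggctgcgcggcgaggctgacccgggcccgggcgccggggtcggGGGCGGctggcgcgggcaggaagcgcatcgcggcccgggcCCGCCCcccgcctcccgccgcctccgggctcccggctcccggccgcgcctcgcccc
PLXNC1: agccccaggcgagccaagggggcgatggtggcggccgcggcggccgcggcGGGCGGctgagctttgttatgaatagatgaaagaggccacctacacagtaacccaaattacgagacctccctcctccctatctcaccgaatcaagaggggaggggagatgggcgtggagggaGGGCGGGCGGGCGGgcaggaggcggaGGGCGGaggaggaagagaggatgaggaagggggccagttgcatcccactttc
SEMA4A: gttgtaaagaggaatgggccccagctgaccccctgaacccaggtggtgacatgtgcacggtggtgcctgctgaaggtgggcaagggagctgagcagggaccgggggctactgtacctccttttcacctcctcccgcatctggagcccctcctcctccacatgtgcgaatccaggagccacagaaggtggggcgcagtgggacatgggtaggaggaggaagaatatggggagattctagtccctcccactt

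The 3 windows differed in composition, with 88.8% G and C in PLXND1, 65.2% in PLXNC1 and 60.4% in SEMA4A. PLXND1 held 9 GC boxes, PLXNC1 held 5 and this SEMA4A window held 0. RefSeq promoters were found for 27 of the 31 members (48 windows), whose median was 64.8% G and C with 15 CpG sites, against 58.0% and 11 over all 35116 promoters. A GC box stood in 30 of the 48 windows and in 42.6% of all promoters. The octamer ATGCAAAT, the letters that POU2F factors are known to bind, was in 1 window of the members (SEMA3F) and in 1.63% of all promoters. The letters GAAA or GGAA, followed by any 2 bases and GAAA, searched for IRF and for ETS with IRF, were in 0 windows, and in 3.02% and 2.41% of all promoters. The E-box CACGTG was in 3 windows (SEMA3E, SEMA4D and SEMA6D; 6.34% of all promoters), and the AP-1 letters TGANTCA in 1 (a second PLXNC1 start; 6.57%). Both strands were searched, and the IRF and ETS-IRF letters can overlap. These matches are descriptions of letters only.

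Under DMSO the lines used different members of the family, as levels per kb of the canonical transcript show. In NCI-H526 the highest means were those of PLXNB2 (19.7 per kb), PLXNA3 (13.2) and PLXNB1 (11.4), and in NCI-H1048 those of PLXNB2 (21.9), PLXNB1 (17.5) and SEMA4C (15.1). PLXNB1 and PLXNB2 are receptors of class 4 semaphorins. In NCI-H929 the order was led by SEMA4A (253 per kb), SEMA4D (49.8) and PLXNA1 (20.7), and in MM1.S by SEMA4A (240), PLXNC1 (72.0) and SEMA4D (41.6). PLXNB1 was near absent from both myeloma lines, with scaled values of 0.0893 to 0.488 in the NCI-H929 libraries, and MM1.S ranged from 0.247 to 0.386. The neuropilins ranked low in the myeloma lines, where NRP1 stood at 0.398 per kb in NCI-H929 and 0.715 in MM1.S.

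**Figure D1:**
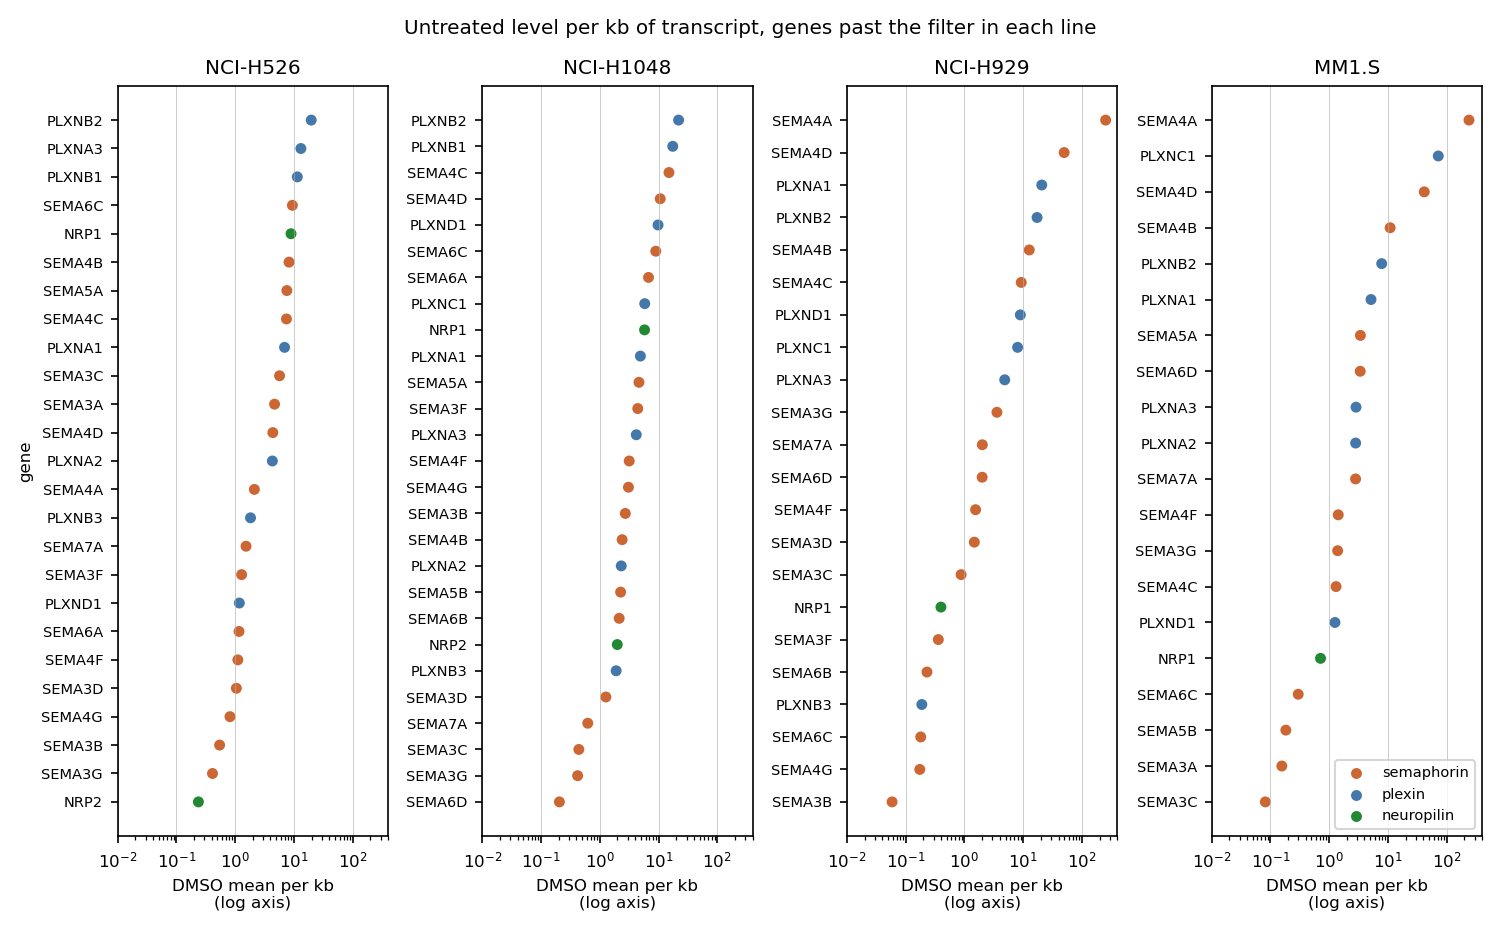
Mean scaled value of the 2 DMSO libraries divided by the length of the canonical transcript in kb (log axis), for the members past the filter in each line, ordered within the line and coloured by kind. Plexins lead in NCI-H526 and NCI-H1048, and SEMA4A stands at the top in NCI-H929 (253 per kb) and MM1.S (240 per kb). MM1.S was prepared by another method, so its axis is not comparable with the rest.

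In NCI-H526, 19 of 25 members changed, 3 higher and 16 lower, where 58.8% of all tested genes were called (29.0% higher and 29.8% lower). Their median log2 fold change was -0.47, against -0.00 over all genes. In NCI-H1048, 17 of 27 changed, 3 higher and 14 lower, with 35.1% of all genes called (16.9% higher, 18.2% lower) and medians of -0.31 and 0.01. In NCI-H929, 17 of 22 changed, 11 higher and 6 lower, with 76.0% of all genes called (38.4% higher, 37.6% lower) and medians of 0.44 and 0.04. In MM1.S, 15 of 20 changed, 8 higher and 7 lower, with 74.1% of all genes called (33.9% higher, 40.2% lower) and medians of 0.00 and -0.03. The counts called in NCI-H929 and MM1.S lay near their backgrounds. Among members whose mean reached 1 in both arms, 13 of 18 were called in NCI-H929, 7 higher and 6 lower, against 75.9% of all such genes, and their median was 0.05. In MM1.S, 12 of 17 such members were called, 6 in each direction, against 73.9%, and in NCI-H1048 16 of 26, 3 higher and 13 lower, against 34.6%. The NCI-H929 median of all tested members was -0.02 with a filter at a mean of 5, 0.18 with quantile normalization and 0.65 with every library rescaled to the same total. The changes reached 2-fold for 4 members in NCI-H526 (6.93% of all genes), 6 in NCI-H1048 (4.48%), 8 in NCI-H929 (27.8%) and 8 in MM1.S (23.9%). Among members with a mean of at least 1 in both arms, 5 of 26 in NCI-H1048 changed 2-fold (3.57% of all such genes). In NCI-H929 they were 5 of 18 (25.4%), which lay near the background, and in MM1.S 6 of 17 (22.2%). With no filter on low values, the NCI-H1048 calls of PLXNA1, SEMA3G, SEMA4B, SEMA4D and SEMA5A were lost (adjusted p of 0.063 to 0.11). Rescaling each library to the same total moved the median of all genes to 0.25 in NCI-H929 and 0.19 in MM1.S, and the share of lower calls among all calls from 49.5% to 37.3% and from 54.3% to 40.0%.

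**Figure D2:**
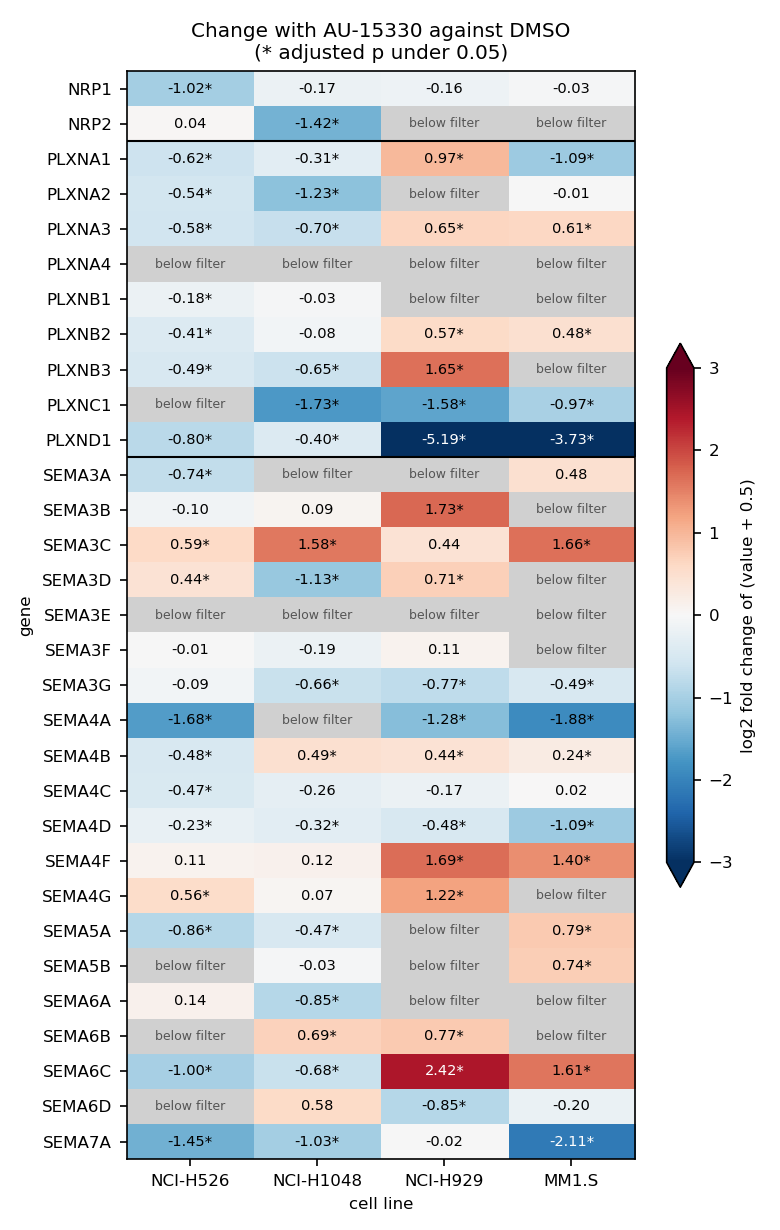
Log2 fold change of value + 0.5 between AU-15330 and DMSO for the 31 members (rows) in the 4 lines (columns), with red for higher and blue for lower, colours saturating beyond 3 on either side, grey below the filter, and an asterisk for an adjusted p under 0.05. Every tested plexin carries an asterisk in NCI-H526 and is blue, while PLXNA3 and PLXNB2 are red in both myeloma lines. The PLXND1 cells of NCI-H929 (-5.19) and MM1.S (-3.73) are at full blue. Asterisks also stand at the 8 pairs that passed the filter through 1 arm only, where a difference followed from the filter.

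Of the 29 members tested in any line, 28 were called in at least 1. All calls of a member were lower for 14 of them and higher for 6, and the direction differed between lines for 8. NRP1, NRP2, PLXNB1, SEMA3A, SEMA4C, SEMA6A and SEMA6D among the 14, and SEMA3B and SEMA5B among the 6, had 1 call each. For SEMA3B and SEMA5B the direction of that call followed from the filter. The share of all genes with these patterns was not taken, so the counts describe the members only. PLXND1 and SEMA4D were called lower in each of the 4 lines, a pattern that 3.30% of the 11059 genes tested in 4 lines had. The PLXND1 pattern includes its MM1.S call, where the gene passed the filter through 1 arm only, so SEMA4D alone had it without such a call. No member was called higher in all 4 lines (4.11% of those genes were). SEMA3F, a secreted ligand of NRP2, was called in no line, with log2 fold changes of -0.01 in NCI-H526, -0.19 in NCI-H1048 and 0.11 in NCI-H929.

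PLXND1 stood at 62.3 and 61.3 in the DMSO libraries of NCI-H929 and at 1.00 and 1.43 with AU-15330. In MM1.S it stood at 8.75 and 8.64 under DMSO and at 0.198 and 0.191 with the degrader, which is about 4 and 5 reads. The arms lay far apart in both myeloma lines. The log2 fold change of value + 0.5 was -5.19 ± 0.16 in NCI-H929 (adjusted p = 2.1e-12). The MM1.S value was -3.73 ± 0.17, given without a test because the gene passed the filter there through DMSO alone. The added 0.5 holds these values back, and the plain ratio of the means was 50.9 in NCI-H929 and 44.7 in MM1.S. In NCI-H526 PLXND1 was at 8.52 and 7.79 under DMSO and at 4.83 and 4.14 with AU-15330 (-0.80 ± 0.12, adjusted p = 0.000218). In NCI-H1048 it was at 70.5 and 65.0, and at 51.5 and 51.0 (-0.40 ± 0.10, adjusted p = 0.00421), and without the first DMSO library the call was lost (adjusted p = 0.17). The averaged effect in the SCLC-P lines minus that in the myeloma lines was 3.86 ± 0.12, given without a test because it draws on the MM1.S libraries. Between the myeloma lines the effect in NCI-H929 minus that in MM1.S was -1.47 ± 0.23 (adjusted p = 0.00039). This difference draws on the same MM1.S libraries and rested on the pseudocount. It was -0.68 (adjusted p = 0.082) with a pseudocount of 0.1 and -0.32 (adjusted p = 0.57) with limma-voom on estimated counts.

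PLXND1 is also an endothelial gene, so the endothelial list was read beside it. In NCI-H929 the list (4 genes, 1 with a mean of at least 1) summed to 148 to 149 under DMSO and to 7.49 to 9.17 with AU-15330, nearly all of it PECAM1, which fell by 4.23 ± 0.09 on the log2 scale (adjusted p = 9.46e-14). In MM1.S (2 of 4 genes) the sum was 9.25 to 10.5 and then 6.04 to 6.86. The defining gene CDH5 was at or below 0.0977 in every NCI-H929 library and at or below 0.194 in every MM1.S library, and TEK was at or below 0.445 in both lines. EMCN was at 0.388 to 0.977 in NCI-H929 and at 0.841 to 1.60 in MM1.S. The part of these genes in the PLXND1 result was not tested.

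PLXNC1 was at 60.0 and 60.3 under DMSO in NCI-H929 and at 21.0 and 18.6 with AU-15330. In MM1.S it was at 517 and 562, and at 276 and 274. In NCI-H1048 it was at 43.0 and 44.3, and at 11.7 and 14.1. No treated library reached a DMSO library in any of these lines. The log2 fold changes were -1.58 ± 0.08 in NCI-H929 (adjusted p = 5.13e-10), -0.97 ± 0.06 in MM1.S (adjusted p = 5.6e-08) and -1.73 ± 0.12 in NCI-H1048 (adjusted p = 6.61e-10). The fall was deeper in NCI-H929 than in MM1.S, with a difference of -0.61 ± 0.09 (adjusted p = 0.000218). In NCI-H526 PLXNC1 was below the filter, at 0.437 to 0.850.

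The class A plexins, which serve class 3 semaphorins with a neuropilin and class 6 semaphorins directly, split by line. PLXNA1 was at 191 and 194 under DMSO in NCI-H929 and at 386 and 369 with AU-15330 (0.97 ± 0.04, adjusted p = 4.16e-11). In MM1.S it was at 48.7 and 47.5, and at 19.1 and 26.0 (-1.09 ± 0.12, adjusted p = 9.12e-06). PLXNA1 was the member with opposite calls in the 2 myeloma lines, and the difference of 2.06 ± 0.15 passed (adjusted p = 1.16e-06). It fell in NCI-H526 (-0.62 ± 0.05) and in NCI-H1048 (-0.31 ± 0.10, adjusted p = 0.0239). In NCI-H1048 the call did not hold without the first DMSO library (adjusted p = 0.37) or the second (0.12).

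PLXNA3 was at 145 and 142 in NCI-H526 under DMSO and at 101 and 90.7 with AU-15330, and in NCI-H1048 at 48.6 and 42.4, and at 28.0 and 27.6. It moved the other way in NCI-H929, from 54.0 and 51.6 to 85.5 and 80.9, and in MM1.S, from 32.4 and 30.0 to 46.2 and 50.0. The arms did not overlap in any line. The log2 fold changes were -0.58 ± 0.05, -0.70 ± 0.11, 0.65 ± 0.06 and 0.61 ± 0.08, and each passed. The SCLC-P effect minus the myeloma effect was -1.27 ± 0.08 (adjusted p = 3.95e-10). PLXNA3 and SEMA6C were the members called lower in both SCLC-P lines and higher in both myeloma lines, although SEMA6C passed the filter in NCI-H929 through its treated libraries only. The share of all genes with this pattern was not taken, so it describes these members only. PLXNA2 fell in NCI-H526 (-0.54 ± 0.05) and by more in NCI-H1048 (-1.23 ± 0.12), with a difference of 0.69 ± 0.11 (adjusted p = 0.000599), and in MM1.S its value was -0.01 ± 0.08.

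The class B plexins are receptors of class 4 semaphorins. PLXNB2 was at 126 and 127 under DMSO in NCI-H526 and at 96.2 and 93.4 with AU-15330 (-0.41 ± 0.04, adjusted p = 1.24e-05). It rose in NCI-H929, from 107 and 113 to 169 and 160 (0.57 ± 0.05), and in MM1.S, from 49.9 and 50.8 to 63.5 and 78.1 (0.48 ± 0.09). The averaged effect in the SCLC-P lines minus that in the myeloma lines was -0.77 ± 0.08 (adjusted p = 2.9e-07). In NCI-H1048 the arms overlapped (-0.08 ± 0.10). PLXNB3 fell in NCI-H526 (-0.49 ± 0.09) and NCI-H1048 (-0.65 ± 0.14), where the call did not hold without the first DMSO library (adjusted p = 0.065). It rose in NCI-H929 from 1.03 and 1.28 to 4.72 and 4.62 (1.65 ± 0.25). Its exons share 1432 bases with those of SRPK3 on the same strand, so its reads cannot be assigned with certainty. PLXNB1 fell by 0.18 ± 0.05 in NCI-H526 (adjusted p = 0.0159), a call lost in 5 settings, among them without the first DMSO library (adjusted p = 0.097) and in 1 fit of all 16 libraries (0.53), and was at -0.03 ± 0.10 in NCI-H1048.

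NRP1, the co-receptor of SEMA3A, was at 48.1 and 52.8 under DMSO in NCI-H526 and at 23.3 and 25.9 with AU-15330 (-1.02 ± 0.07, adjusted p = 8.8e-07). In NCI-H1048 it was at 32.5 and 32.7, and at 27.8 and 30.1 (-0.17 ± 0.11, adjusted p = 0.222). The fall was deeper in NCI-H526, with a difference of -0.85 ± 0.12 (adjusted p = 0.000308). NRP2, the co-receptor of SEMA3F, showed the reverse. It was at 13.9 and 12.5 under DMSO in NCI-H1048 and at 4.65 and 4.55 with AU-15330 (-1.42 ± 0.14, adjusted p = 1.47e-07). In NCI-H526, where NRP2 was at 1.31 to 1.97 and the arms overlapped, the change was 0.04 ± 0.21, and the difference between the lines was 1.46 ± 0.26 (adjusted p = 0.00144). In the myeloma lines the arms of NRP1 overlapped.

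**Figure D3:**
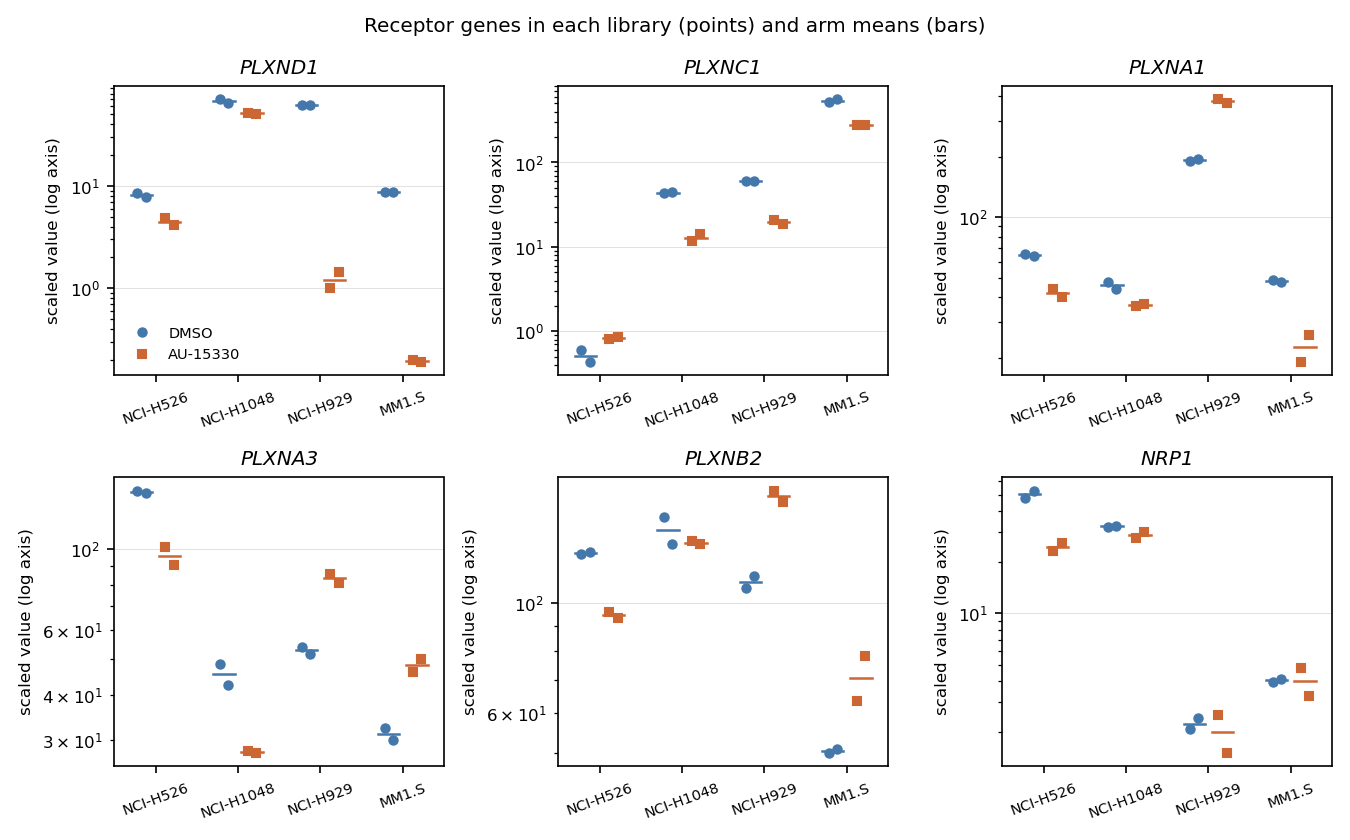
Scaled values (log axes, which differ between panels) of 6 receptor genes in each library, with DMSO as blue circles, AU-15330 as orange squares, and a bar for the mean of the 2 libraries of a group. PLXND1 drops furthest in NCI-H929 and MM1.S, PLXNA1 rises only in NCI-H929, and NRP1 separates by arm in NCI-H526 and NCI-H1048 but not in the myeloma lines.

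SEMA4A, a class 4 ligand known from T cell responses, was at 814 and 827 under DMSO in NCI-H929 and at 337 and 337 with AU-15330. In MM1.S it was at 780 and 777, and at 207 and 214. In NCI-H526, far below its level in NCI-H929, it was at 6.63 and 7.15, and at 1.88 and 1.73. The treated libraries lay below the DMSO libraries in each line. The log2 fold changes were -1.28 ± 0.03 (adjusted p = 6.17e-13), -1.88 ± 0.05 (adjusted p = 3.4e-10) and -1.68 ± 0.13 (adjusted p = 2.16e-06). The fall was 0.60 ± 0.05 deeper in MM1.S than in NCI-H929 (adjusted p = 5.88e-06). In NCI-H1048 SEMA4A missed the filter, at 1.32 and 1.28, and at 0.227 and 0.137, about 8 and 5 reads.

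SEMA4D, also known as CD100 and a ligand of PLXNB1 and CD72, was at 227 and 227 under DMSO in NCI-H929 and at 162 and 164 with AU-15330 (-0.48 ± 0.04). In MM1.S it was at 188 and 192, and at 88.7 and 88.8 (-1.09 ± 0.05, adjusted p = 1.76e-08). The fall was 0.62 ± 0.06 deeper in MM1.S (adjusted p = 1.04e-05). It was shallower in the SCLC-P lines, at -0.23 ± 0.07 in NCI-H526 (adjusted p = 0.021) and -0.32 ± 0.11 in NCI-H1048 (adjusted p = 0.0251). The averaged effect in the SCLC-P lines minus that in the myeloma lines was 0.51 ± 0.07 (adjusted p = 5.04e-06). The NCI-H526 call was lost without its second DMSO library (adjusted p = 0.19), and with every library rescaled to the same total (0.057). The NCI-H1048 call was lost without its first DMSO library (adjusted p = 0.46) or its second (0.067).

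SEMA4F, a class 4 ligand, rose in both myeloma lines. It was at 8.98 and 9.82 under DMSO in NCI-H929 and at 31.2 and 31.5 with AU-15330 (1.69 ± 0.11, adjusted p = 6.23e-09), and in MM1.S at 8.90 and 8.48, and at 23.6 and 23.7 (1.40 ± 0.09, adjusted p = 1.86e-07). In the SCLC-P lines its values were 0.11 ± 0.13 and 0.12 ± 0.11. The averaged effect in the SCLC-P lines minus that in the myeloma lines was -1.42 ± 0.12 (adjusted p = 1.3e-08). SEMA4B fell in NCI-H526 (-0.48 ± 0.06) and rose in NCI-H1048 (0.49 ± 0.13), NCI-H929 (0.44 ± 0.06) and MM1.S (0.24 ± 0.07). The NCI-H526 and NCI-H1048 effects differed by -0.96 ± 0.12 (adjusted p = 0.000181), and the NCI-H1048 call did not hold without its second DMSO library (adjusted p = 0.12). SEMA4C, a ligand of PLXNB2, fell in NCI-H526 (-0.47 ± 0.06) and stood at -0.26 ± 0.11, -0.17 ± 0.08 and 0.02 ± 0.16 in NCI-H1048, NCI-H929 and MM1.S. SEMA4G rose in NCI-H526 (0.56 ± 0.12, with an adjusted p of 0.067 in 1 fit of all 16 libraries). In NCI-H929 it was at 0.488 and 1.07 under DMSO, and at 3.15 and 1.80 with AU-15330 (1.22 ± 0.34). The NCI-H929 value is given without a test because only the treated arm reached the filter. It ranged from 0.88 to 1.55 with 1 library left out. Exons of SEMA4G share 1215 bases with MRPL43 on the other strand.

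SEMA6C, a transmembrane class 6 ligand, was at 36.4 and 36.7 under DMSO in NCI-H526 and at 19.7 and 16.4 with AU-15330, and in NCI-H1048 at 38.1 and 31.4, and at 23.1 and 19.9. In NCI-H929 it went from 0.683 and 0.714 to 5.22 and 6.69, and in MM1.S from 1.07 and 1.23 to 4.10 and 5.05. The arms were separate in each line, with the direction turned between the tumour types. The log2 fold changes were -1.0 ± 0.08, -0.68 ± 0.12, 2.42 ± 0.26 and 1.61 ± 0.18. The SCLC-P effect minus the myeloma effect was -2.85 ± 0.15. This is given without a test because it draws on the NCI-H929 libraries whose DMSO values lay under the filter. SEMA6A, a ligand of PLXNA2 and PLXNA4, fell in NCI-H1048 from 47.1 and 45.1 to 23.3 and 27.6 (-0.85 ± 0.11), and was at 0.14 ± 0.10 in NCI-H526. SEMA6D, a ligand of PLXNA1, fell in NCI-H929 from 11.5 and 12.1 to 5.96 and 6.77 (-0.85 ± 0.16), and in MM1.S its value was -0.20 ± 0.10, with a difference of -0.64 ± 0.16 (adjusted p = 0.00741). SEMA6B rose in NCI-H1048 (0.69 ± 0.14). In NCI-H929 it was at 0.976 and 0.804 under DMSO, and at 1.86 and 1.88 with AU-15330 (0.77 ± 0.30). The NCI-H929 value is given without a test because only the treated arm reached the filter. It was 0.30 under quantile normalization, and 0.68 to 0.86 with 1 library left out.

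SEMA7A, the lipid-anchored ligand of PLXNC1 and integrins, was at 9.61 and 9.44 under DMSO in MM1.S and at 1.53 and 2.14 with AU-15330 (-2.11 ± 0.16, adjusted p = 4.95e-07). In NCI-H929 it was at 7.71 and 5.89, and at 7.23 and 6.09 (-0.02 ± 0.19). The arms were separate in MM1.S and overlapped in NCI-H929, and the lines differed by 2.09 ± 0.26 (adjusted p = 6.67e-05). SEMA7A fell in NCI-H526 from 4.98 and 5.38 to 1.57 and 1.59 (-1.45 ± 0.14). In NCI-H1048 it was at 1.75 and 2.47 under DMSO, and at 0.737 and 0.794 with AU-15330 (-1.03 ± 0.24). The NCI-H1048 value is given without a test because only the DMSO arm reached the filter. It ranged from -1.23 to -0.83 with 1 library left out. The class 5 ligand SEMA5A, which carries thrombospondin repeats, fell in NCI-H526 from 89.8 and 88.7 to 50.4 and 47.8 (-0.86 ± 0.05) and in NCI-H1048 from 54.1 and 55.1 to 33.4 and 45.8 (-0.47 ± 0.12). In MM1.S it rose from 37.1 and 42.9 to 68.2 and 70.5 (0.79 ± 0.08). SEMA5B was at 0.894 and 0.887 under DMSO in MM1.S, and at 2.22 and 1.49 with AU-15330 (0.74 ± 0.22). The MM1.S value is given without a test because only the treated arm reached the filter. It ranged from 0.52 to 0.97 with 1 library left out. In NCI-H1048 SEMA5B was at -0.03 ± 0.13.

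**Figure D4:**
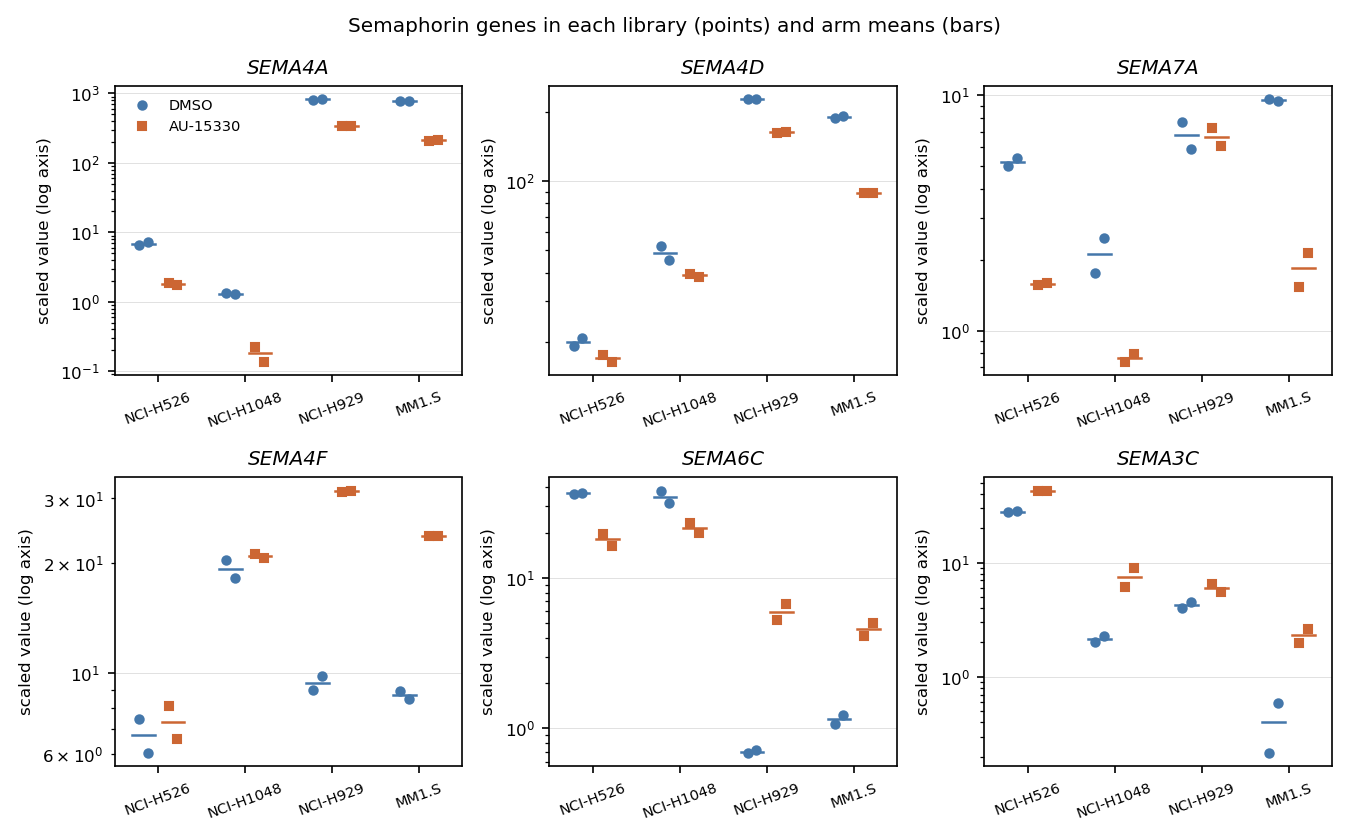
Scaled values (log axes, which differ between panels) of 6 semaphorin genes in each library, with DMSO as blue circles, AU-15330 as orange squares, and a bar for the mean of the 2 libraries of a group. SEMA4A and SEMA4D lie lower with AU-15330 in each line (SEMA4A in NCI-H1048 was below the filter), SEMA6C falls in NCI-H526 and NCI-H1048 and rises in NCI-H929 and MM1.S, and SEMA7A overlaps between the arms only in NCI-H929.

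The secreted class 3 ligands were low in most lines. SEMA3A, the ligand of NRP1 with class A plexins, was at 39.8 and 36.3 under DMSO in NCI-H526 and at 22.6 and 22.4 with AU-15330 (-0.74 ± 0.06, adjusted p = 4.47e-06). In MM1.S it was at 1.59 and 0.956, and at 1.98 and 1.87 (0.48 ± 0.22, adjusted p = 0.0701). SEMA3C, a ligand of both neuropilins, rose in NCI-H526 from 27.5 and 28.2 to 42.6 and 41.9 (0.59 ± 0.05), in NCI-H1048 from 2.00 and 2.29 to 6.10 and 8.90 (1.58 ± 0.19), and in MM1.S from 0.215 and 0.586 to 1.98 and 2.64 (1.66 ± 0.26). In NCI-H929 it went from 4.00 and 4.55 to 6.51 and 5.48 (0.44 ± 0.20, adjusted p = 0.056), with separate arms. The rise was larger in MM1.S, with a difference of NCI-H929 minus MM1.S of -1.22 ± 0.34 (adjusted p = 0.0128), which draws on MM1.S libraries with DMSO values under the filter and was lost without the first MM1.S DMSO library (adjusted p = 0.053).

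SEMA3D, another class 3 ligand, had opposite calls in the SCLC-P lines. It rose in NCI-H526 from 6.30 and 7.93 to 9.96 and 9.61 (0.44 ± 0.12, adjusted p = 0.00813, and 0.087 without the first DMSO library), and fell in NCI-H1048 from 8.70 and 8.51 to 3.18 and 4.22 (-1.13 ± 0.16). The difference was 1.57 ± 0.21 (adjusted p = 0.00021), and in NCI-H929 SEMA3D rose from 9.86 and 10.1 to 16.5 and 16.9 (0.71 ± 0.13). SEMA3G fell in NCI-H929 from 16.5 and 19.2 to 9.73 and 10.8 (-0.77 ± 0.13). Its falls in NCI-H1048 (-0.66 ± 0.22, adjusted p = 0.0246) and MM1.S (-0.49 ± 0.15, adjusted p = 0.0114) were each lost without the first DMSO library of the line (adjusted p = 0.16 and 0.11) or the second (0.19 and 0.071), and the MM1.S call also without the first treated library (0.061). SEMA3B was at 0.195 and 0.179 under DMSO in NCI-H929, about 2 reads each. With AU-15330 it was at 2.29 and 1.35, about 32 and 18 reads (1.73 ± 0.36). This is given without a test because only the treated arm reached the filter. In the SCLC-P lines its arms overlapped, at -0.10 ± 0.17 and 0.09 ± 0.15.

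The lines were then compared with each other. Between NCI-H526 and NCI-H1048 the effects differed for 10 of 23 members tested in both (28.9% of all genes). The larger differences, SEMA3D, NRP2, SEMA6A (0.99 ± 0.15), SEMA3C (-0.98 ± 0.20), SEMA4B and NRP1, are described with the genes. The differences of PLXNA1 (-0.30 ± 0.11, adjusted p = 0.0497), PLXNB2 (-0.33 ± 0.10, adjusted p = 0.0259) and PLXND1 (-0.40 ± 0.13, adjusted p = 0.0435) were small, and each was lost without either DMSO library of NCI-H526 (adjusted p = 0.18 and 0.13 for PLXNA1, 0.094 and 0.11 for PLXNB2, 0.17 and 0.064 for PLXND1) and under several other settings. Between NCI-H929 and MM1.S, 9 of 16 members differed (48.3% of all genes). Of the 9, PLXND1, SEMA3C and SEMA6C passed the filter in 1 of these lines through 1 arm only. No count without such genes was taken for these differences. That of SEMA6C (0.81 ± 0.30, adjusted p = 0.0423) was lost with a replicate block (adjusted p = 0.06) and without 7 of the 8 libraries, singly. Between the tumour types, averaged over 2 lines each, 10 of 13 members differed, against 76.1% of all genes. The SCLC-P effect was higher for 2 (41.5% of all genes) and lower for 8 (34.6%). The p-values of these differences measure the spread between libraries, not between lines of a tumour type. Of the 10, PLXND1 and SEMA6C passed the filter in a myeloma line through 1 arm only, and no count without such genes was taken. SEMA4C (-0.29 ± 0.12, adjusted p = 0.036) and NRP1 (-0.51 ± 0.17, adjusted p = 0.0147) were the least stable. SEMA4C was lost without the first DMSO library of NCI-H1048 (adjusted p = 0.1) and 9 other single libraries, and NRP1 by quantile normalization (-0.24, adjusted p = 0.24). PLXNA1 passed (-0.40 ± 0.10) although its 2 myeloma lines moved in opposite directions, so the average describes neither.

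**Figure D5:**
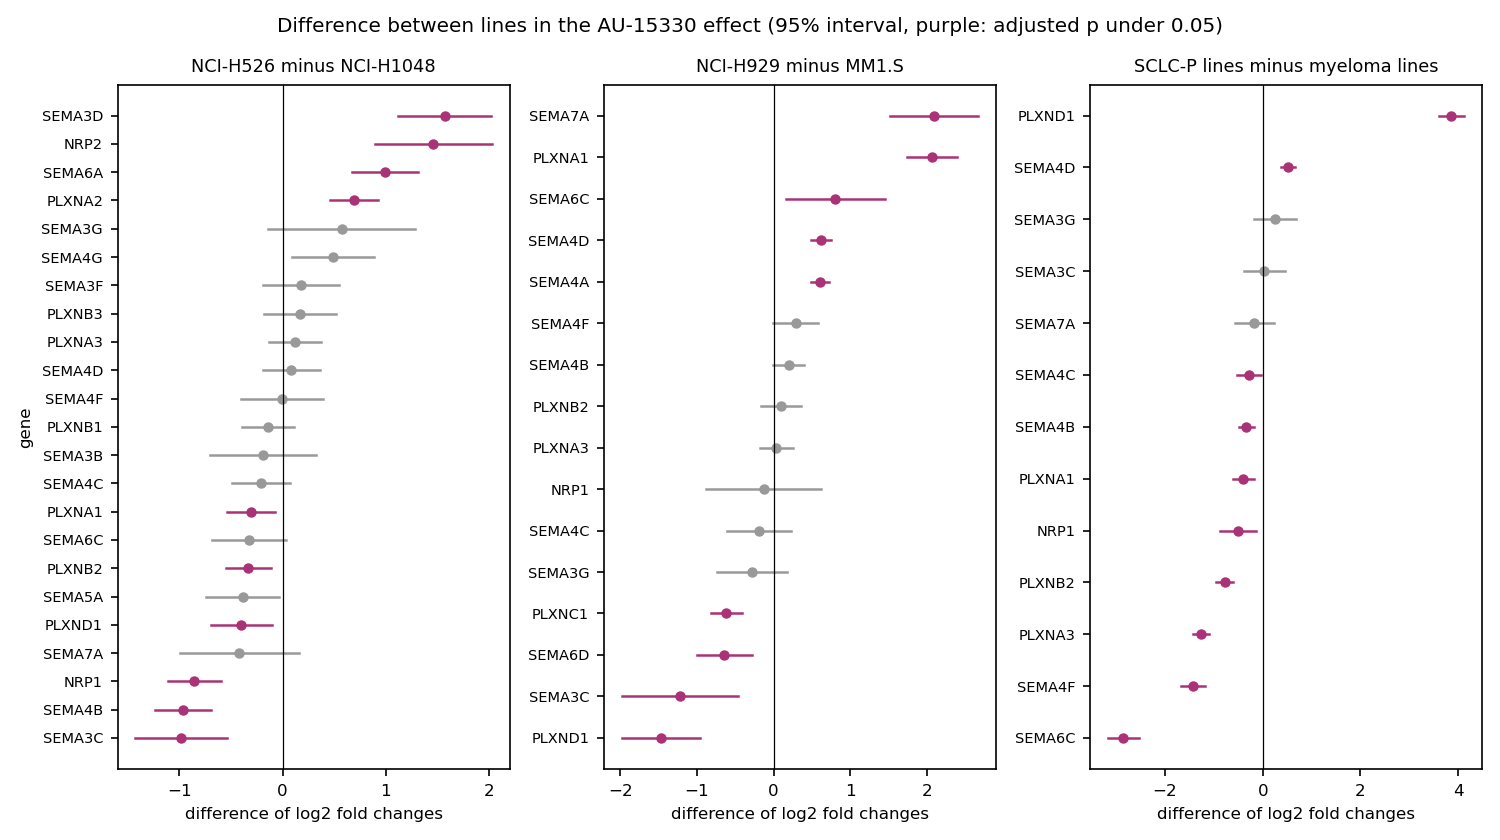
Difference of log2 fold changes with its 95% interval for each member tested in the lines concerned, in purple where the adjusted p was under 0.05 and grey otherwise. PLXND1 (3.86) and SEMA6C (-2.85) lie furthest apart between the tumour types, and SEMA7A (2.09) and PLXNA1 (2.06) between NCI-H929 and MM1.S.

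The partners of the pathway, a list of 61 genes with roles from co-receptors to cytoskeletal effectors, were read from the same fits. In NCI-H526, 8 rose and 31 fell of 54 tested (72.2% called, against 58.8% of all genes), and in NCI-H1048 6 rose and 17 fell of 56 (41.1% against 35.1%). In NCI-H929, 21 rose and 18 fell of 45 (86.7% against 76.0%), and in MM1.S 13 rose and 23 fell of 48 (75% against 74.1%). The share called in MM1.S lay at its background. Among cytoskeletal effectors and kinases 13 were lower and 3 higher of 18 in NCI-H526, 8 and 1 of 18 in NCI-H1048, 9 and 4 of 17 in NCI-H929 and 13 and 1 of 15 in MM1.S. Over all genes the lower calls took 29.8%, 18.2%, 37.6% and 40.2% in these lines, and the groups themselves were not tested. Of the co-receptors and partner receptors, 8 fell and 1 rose of 10 in NCI-H526, and 5 fell and 1 rose of 10 in NCI-H1048. In NCI-H929 only 4 of the 15 listed were tested and all 4 rose, and in MM1.S 3 rose and 1 fell of 8. Over all genes the higher calls took 29.0%, 16.9%, 38.4% and 33.9% in these lines.

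By the naming rule, the deepest falls in NCI-H526 were FLT1, a VEGF receptor, from 70.2 and 71.6 to 11.0 and 10.3 (-2.68 ± 0.06), and FES, a kinase that acts downstream of class A plexins (-1.99 ± 0.06). The largest rises there were small, RANBP9 and PAK1 at 0.40 each. In NCI-H1048, MET, the partner receptor of class B plexins, fell from 153 and 146 to 38.9 and 46.9 (-1.79 ± 0.11), and VEGFA, a ligand of neuropilins, fell by 1.56 ± 0.10, while ITGA1 (0.63) and ARHGAP35 (0.44) rose. In NCI-H929, TIAM1, an activator of RAC1, fell (-1.31 ± 0.09) with VEGFB (-1.23 ± 0.10), while SH3BP1 (1.33 ± 0.07) and RAP1B (1.12 ± 0.04) rose. In MM1.S, MICAL2, an oxidase acting on actin, fell from 40.7 and 42.9 to 3.17 and 2.87 (-3.59 ± 0.10), and FARP2, an exchange factor bound to class A plexins, fell by 1.38 ± 0.06. RND3 rose there (1.48 ± 0.09), as did RAP1B (1.11 ± 0.06), a GTPase on which plexins act.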

How the data were processed

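The deposited table holds 1 value per gene and library for 35606 genes and 16 libraries. Its name calls the values CPM, and the totals ran from 0.829 to 1.19 M per library, with a geometric mean of 1.00 M. The values were therefore treated as scaled, a signal the authors made by quantifying reads with kallisto and rescaling each library. The setting that brings every library to the same total takes this rescaling out. The build, GRCh38, and the tools FastQC, kallisto, edgeR and limma come from the submitters' notes. How the counting treated strand is not given in the sources used here. For depth, the value of 1 read was taken as the most frequent nonzero value, but only 74.8% to 80.1% of low values were whole multiples within 0.1, so counts were not recovered, estimated reads are approximate, and no count model was the main test. The test planned for CPM was kept.

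Genes with a mean of at least 1 in a line were tested in R 4.3.3, using the two-sided moderated test of limma 3.58.1 with a variance trend on log2(value + 0.5), each line alone, with Benjamini-Hochberg adjustment over all genes tested and a threshold of 0.05. Differences between lines were contrasts in 1 fit of the lines concerned. The members, the pathway list, the marker lists and the tests were chosen with earlier results of these data known. Every member past the filter could be named, and from the pathway list the 2 largest rises and 2 largest falls in a line, among genes that average 10 or more there. Of the gene IDs, 35444 matched GENCODE release 44, from which transcript lengths were taken, and promoters came from RefSeq on GRCh38.p14. Exon overlaps with other genes were read from the same annotation. The code was tested on simulated data with known fold changes, where the median estimates lay close to the simulated sizes, and differences between 2 lines passed the threshold less often than changes of the same size within a line. Replicate libraries differed beyond sampling noise in every group, so each was counted.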

Additional observations from a re-analysis of the deposited data

Results flagged for a closer look

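The effect of AU-15330 differed between lines, by a test of the difference itself, for the members below, with the limits given beside them. All values are differences of log2 fold changes. Between NCI-H526 and NCI-H1048 the effect in NCI-H526 was higher for SEMA3D (1.57), NRP2 (1.46), SEMA6A (0.99) and PLXNA2 (0.69). It was lower for SEMA3C (-0.98), SEMA4B (-0.96), NRP1 (-0.85), PLXND1 (-0.40), PLXNB2 (-0.33) and PLXNA1 (-0.30). Those of PLXND1, PLXNB2 and PLXNA1 were small and did not hold under several settings.

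Between NCI-H929 and MM1.S the effect in NCI-H929 was higher for SEMA7A (2.09), PLXNA1 (2.06), SEMA6C (0.81), SEMA4D (0.62) and SEMA4A (0.60). It was lower for PLXND1 (-1.47), SEMA3C (-1.22), SEMA6D (-0.64) and PLXNC1 (-0.61). PLXND1 and SEMA3C passed the filter in MM1.S through 1 arm only, as did SEMA6C in NCI-H929, so their differences are descriptions. That of PLXND1 rested on the pseudocount, and that of SEMA6C did not hold with a replicate block. The MM1.S libraries were made by another method, which cannot be told apart from the line, although each effect was taken within a line.

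Between the tumour types the effect in the SCLC-P lines was higher for PLXND1 (3.86) and SEMA4D (0.51). It was lower for SEMA6C (-2.85), SEMA4F (-1.42), PLXNA3 (-1.27), PLXNB2 (-0.77), NRP1 (-0.51), PLXNA1 (-0.40), SEMA4B (-0.34) and SEMA4C (-0.29). The values of PLXND1 and SEMA6C draw on a myeloma line where the gene passed the filter through 1 arm only, so they are descriptions. Those of SEMA4C and NRP1 were the least stable.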

How the results depend on the processing

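The 97 member values that passed the test kept their direction in all 1594 recomputations where the gene still passed the filter. They stayed past the threshold in 1489 of these. Settings where a gene fell below the filter were not counted, and the 97 include the 8 one-arm values whose direction the filter fixed. Every value that changed sign was one that had not passed. Each group holds 2 libraries, and low members rest on few reads, so small changes of low genes were not detectable here. Whether the replicate numbers pair the samples was not settled. The correlation of deviations was 0.04 in NCI-H526, 0.31 in NCI-H1048, 0.00 in NCI-H929 and -0.33 in MM1.S, over 2 pairs each. With the replicate number as a block the members called were 19, 19, 17 and 15 in these lines, and 11, 8 and 10 for the differences in the order of the report. Crossed pairing in MM1.S, chosen after seeing the data, called 15 members and 10535 genes.

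The count of all genes called in NCI-H1048 fell from 4808 to 2810 with no filter, and ranged from 2248 to 6503 with 1 library left out. That for the difference of NCI-H526 and NCI-H1048 ranged from 2303 to 5433 (3623 with all of them). The difference of the tumour types called 6 members with a filter at 5 and 21 with no filter, settings that change how many members are tested. The cause of the shifts in the counts of all genes was not tested.

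Signs turned as follows, by log2 value. Under limma-voom the differences were 0.0061 for SEMA4F (NCI-H526 minus NCI-H1048) and -0.36 for SEMA3C (tumour types), and with a pseudocount of 0.1 the latter was -0.25. Under median-ratio rescaling SEMA3F in NCI-H526 was 0.0057, and the differences were 0.013 for SEMA4F (NCI-H526 minus NCI-H1048) and -0.035 for PLXNA3 (NCI-H929 minus MM1.S). Under quantile normalization SEMA3B, SEMA3F and SEMA3G in NCI-H526 were 0.068, 0.19 and 0.10, SEMA5B in NCI-H1048 0.025, SEMA3F in NCI-H929 -0.38, PLXNA2 and SEMA4C in MM1.S 0.12 and -0.039, SEMA4F (NCI-H526 minus NCI-H1048) 0.098, and SEMA7A (tumour types) 0.13. Under total-count scaling SEMA3F in NCI-H526 was 0.030, NRP1, SEMA4C and SEMA7A in NCI-H929 0.023, 0.046 and 0.18, NRP1, PLXNA2 and SEMA6D in MM1.S 0.18, 0.22 and 0.026, SEMA4F (NCI-H526 minus NCI-H1048) 0.043, and SEMA3C (tumour types) -0.15. PLXNA2 in MM1.S then passed (adjusted p = 0.016).

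With 1 library left out, the lone library of its arm being assumed to vary like the others, signs turned within these ranges. In NCI-H526 they were NRP2 -0.19 to 0.26, SEMA3F -0.10 to 0.084, SEMA3G -0.43 to 0.25 and SEMA4F -0.033 to 0.26. In NCI-H1048 they were PLXNB1 -0.14 to 0.069, PLXNB2 -0.17 to 0.0062, SEMA3B -0.096 to 0.27, SEMA4G -0.10 to 0.24 and SEMA5B -0.079 to 0.014. In NCI-H929 they were NRP1 -0.45 to 0.14, SEMA3F -0.065 to 0.29 and SEMA7A -0.20 to 0.16, and in MM1.S NRP1 -0.27 to 0.22, PLXNA2 -0.070 to 0.047 and SEMA4C -0.18 to 0.21. For NCI-H526 minus NCI-H1048 they were SEMA4D -0.018 to 0.19 and SEMA4F -0.15 to 0.14. For NCI-H929 minus MM1.S they were NRP1 -0.42 to 0.17, PLXNA3 -0.019 to 0.093, PLXNB2 -0.056 to 0.24 and SEMA4C -0.38 to 0.0031, and for the tumour types SEMA3C -0.12 to 0.18.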
